A study of Mus musculus with 6 samples.

Results

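The expression of 8 genes that regulate calcification of the vessel wall, *Mgp*, *Spp1*, *Enpp1*, *Ank*, *Alpl*, *Nt5e*, *Runx2* and *Abcc6*, was examined in bulk RNA sequencing of lineage-traced cells from the proximal mouse aorta. The genes were picked by name from the 24421 rows of the deposited matrix, and each of the 8 names matched 1 row. They were chosen with the difference between lineages already known, *Nt5e* above all, so their values by lineage are given as a description and were not tested. The tissue was the root of the aorta with its ascending portion, taken at 8 weeks from mice on the 129S6/SvEv background. All mice carried the *CAG-Sun1/sfGFP* tracer allele, which gives a nuclear GFP signal once Cre has acted. In 3 libraries the driver was Mef2cSHF, which marks descendants of the secondary heart field (SHF), and in 3 it was *Wnt1-Cre2*, which marks descendants of the cardiac neural crest (CNC). Living GFP+ cells were sorted, and no library was mutant or treated. A Cre driver of this kind marks descent and not a cell type. The sources used here do not say whether a library came from 1 mouse or several, nor do they give the sex of the mice. The p-values therefore measure the spread between these libraries only.

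Vascular calcification is held back by several inhibitors. Inorganic pyrophosphate blocks the growth of hydroxyapatite, and its level outside the cell is set by Enpp1, which makes it from ATP, by Ank and Abcc6, which allow its precursor or the ion itself to leave cells, and by tissue-nonspecific alkaline phosphatase (*Alpl*), which destroys it. Matrix Gla protein (*Mgp*) and osteopontin (*Spp1*) are matrix proteins that bind mineral, the enzyme CD73 (*Nt5e*) turns AMP outside the cell into adenosine, and Runx2 is the transcription factor that drives bone cell differentiation. Loss of Mgp calcifies the arteries of mice, and inherited loss of ENPP1, ABCC6 or NT5E calcifies arteries in people.

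The level of a gene is given as TPM, a share of transcripts scaled to a fixed total, which corrects for transcript length, so that genes can be compared with each other within a library. TPM summed to the same total in every library and keeps no sequencing depth. Genes above 0 TPM numbered from 9255 to 11858 per library, and of the 7444 genes that averaged 10 TPM or above, 27.4% had a 0 in 1 library or more. A value of 0 is therefore given as listed at 0. Fibroblast transcripts were abundant in all 6 libraries, where 10 fibroblast genes, led by *Dcn* and *Col3a1*, summed to between 29221 and 54798 TPM and 10 smooth muscle genes, led by *Myl9* and *Acta2*, to between 1309 and 3085 TPM. *Xist* was above 0 in SHF replicates 2 and 3 only.

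*Mgp* was among the most abundant transcripts in every library. It had 29639, 17404 and 16883 TPM in SHF replicates 1, 2 and 3 against 12002, 10949.6 and 12539 TPM in CNC replicates 1, 2 and 3. Every SHF library lay above every CNC library. In rank by TPM, *Mgp* was 1, 1 and 2 in SHF replicates against 6, 5 and 8 in CNC replicates, and it held from 1.69% to 2.96% of all TPM in SHF libraries and from 1.09% to 1.25% in CNC libraries. The SHF libraries averaged 21309 ± 7219 TPM and the CNC libraries 11830 ± 808 TPM (SD, n = 3 each), a ratio of 1.80. SHF replicate 1 stood highest, and without it the difference of mean log2(TPM + 1) went from 0.80 to 0.54. *Mgp* lies on chromosome 6 of GRCm38 from 136872435 to 136875823 on the minus strand, and none of its exons overlaps an exon of another gene.

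**Figure D1:**
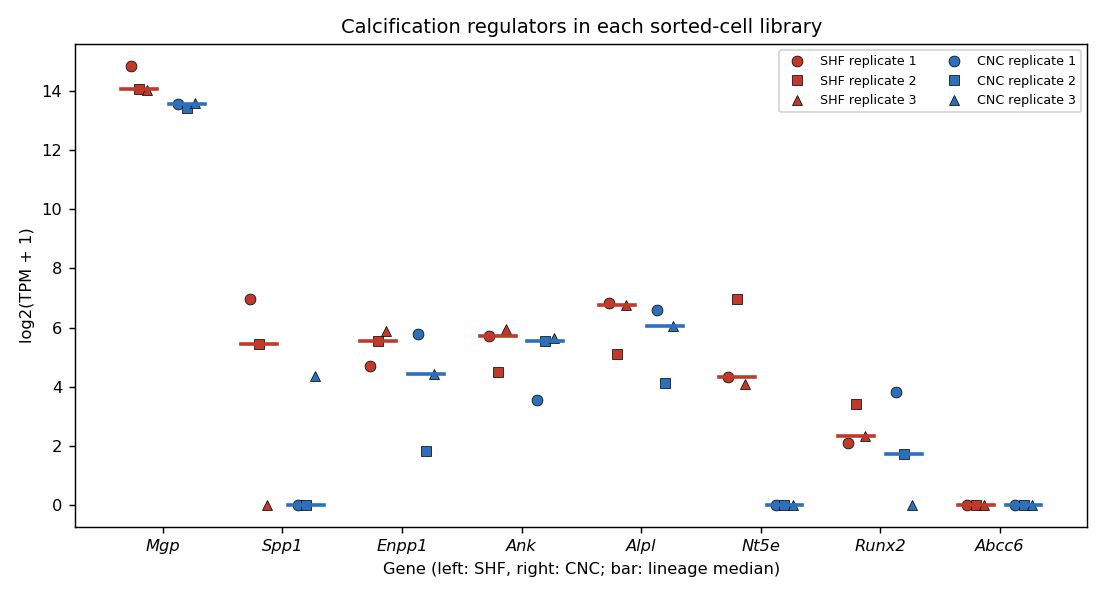
TPM of the 8 genes in each library, as log2(TPM + 1), with SHF libraries on the left and CNC libraries on the right of each gene, 1 point per library and a bar at the lineage median. *Mgp* stands above the other 7 genes in all 6 libraries, *Nt5e* is above 0 in the SHF libraries and listed at 0 in the CNC libraries, and *Abcc6* is listed at 0 throughout.

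The sum of fibroblast transcripts differed between the lineages in the other direction. The summed level of the 10 fibroblast genes was between 29221 and 32484 TPM in SHF libraries and between 40269 and 54798 TPM in CNC libraries, and all 10 genes were above 0 in every library. The lineages did not overlap for 6 of the 10, CNC higher, among them *Col1a1*, *Col1a2* and *Col3a1*, against 11.8% of all genes tested. *Dcn*, the most abundant, averaged 12281 TPM in SHF libraries and 13442 TPM in CNC libraries and overlapped, as did *Lum*, *Dpt* and *Pdgfra*. None of the 10 had an adjusted p under 0.05 in the limma test described below (lowest 0.465). *Mgp* was therefore also set against single matrix genes of the same library, which takes the scaling of TPM out of the comparison. The ratio of *Mgp* to *Col1a1*, the main chain of type I collagen, was 6.53, 4.35 and 3.84 in SHF replicates 1, 2 and 3 against 1.02, 1.50 and 0.98 in CNC replicates. *Col1a1* itself averaged 4314 TPM in SHF libraries and 10631 TPM in CNC libraries. Its difference of mean log2(TPM + 1) was -1.26, larger in size than the 0.80 of *Mgp*, and the ratio holds both differences. The ratio of *Mgp* to *Dcn*, the matrix proteoglycan decorin, was 2.55, 1.36 and 1.35 in SHF replicates against 0.996, 0.74 and 0.94 in CNC replicates. *Mgp* exceeded *Dcn* in all 3 SHF libraries and in none of the 3 CNC libraries. Against *Acta2*, the smooth muscle actin, the ratio was 31.0, 47.9 and 23.6 in SHF replicates against 28.7, 14.3 and 22.4 in CNC replicates, and the lineages overlapped. When TPM was rescaled without *Col1a1*, *Col1a2* and *Col3a1*, the difference of mean log2(TPM + 1) was 0.78 in place of 0.80. Fewer cells of a type and less RNA per cell cannot be told apart in bulk libraries, and the part of cell makeup in these differences was not tested.

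**Figure D2:**
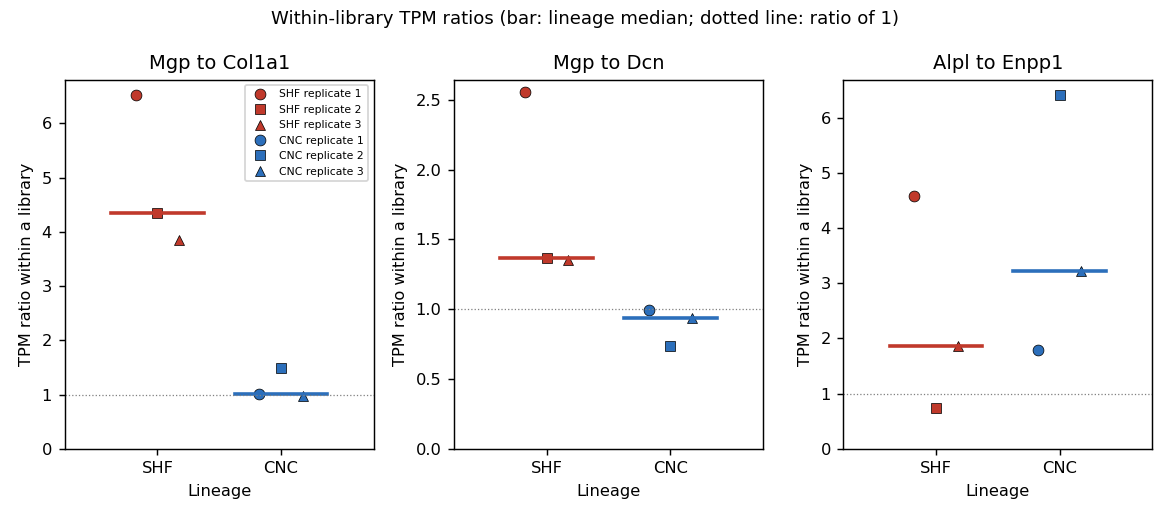
TPM ratios within each library, from a linear axis that starts at 0, for *Mgp* to *Col1a1*, *Mgp* to *Dcn* and *Alpl* to *Enpp1*, with 1 point per library, a bar at the lineage median and a dotted line at a ratio of 1. The *Mgp* ratios of the lineages do not overlap, with SHF libraries at 3.84 or more against *Col1a1*, whereas the *Alpl* to *Enpp1* ratios overlap between 1.78 and 4.57. *Mgp* was higher in every SHF library and *Col1a1* in every CNC library, so the separation of their ratio follows from those levels.

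Mgp needs vitamin K, because its glutamate residues are carboxylated by Ggcx with the cofactor that Vkorc1 recycles. *Ggcx* had 106, 76.8 and 52.2 TPM in SHF replicates 1, 2 and 3 against 91.7, 99.6 and 136 TPM in CNC replicates. *Vkorc1* had 480, 555 and 484 TPM in SHF replicates against 565, 625 and 781 TPM in CNC replicates, so that the lineages did not overlap and CNC was higher. Its exons overlap those of *Gm21974*, and reads there could belong to either. *Vkorc1l1*, a paralog with the same activity, had 5.70, 0 and 3.59 TPM in SHF replicates against 9.30, 12.9 and 13.9 TPM in CNC replicates, again without overlap. The difference of mean log2(TPM + 1), SHF minus CNC, was -0.36 ± 0.27 (SE) for *Vkorc1*, -2.04 ± 1.27 (SE) for *Vkorc1l1* and -0.51 ± 0.46 (SE) for *Ggcx*, with adjusted p-values of 0.887, 0.874 and 0.896 by limma with Benjamini-Hochberg adjustment over 10185 genes. None of these passed the threshold of 0.05.

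Other Gla proteins and their helpers were split. *Gas6*, a Gla protein that activates Axl family receptors, had the highest mean of its list, from 737 to 1413 TPM in SHF libraries and from 641 to 1042 TPM in CNC libraries. *Calu*, an inhibitor of the carboxylase, was between 209 and 757 TPM in SHF libraries and between 440 and 534 TPM in CNC libraries. Both had overlapping lineages, and exons of *Gas6* overlap those of *Tmem255b*. *Pros1*, the anticoagulant protein S, was listed at 0 in SHF replicate 2 and was at 73.6 to 139 TPM in the other 5 libraries. *Ucma*, the Gla-rich protein of cartilage, had 4.40, 0 and 67.4 TPM in SHF replicates against 0, 0 and 12.7 TPM in CNC replicates. *Bglap* and *Bglap2*, near-identical osteocalcin genes whose reads can be confused, were each above 0 in 1 library, at 14.6 TPM in CNC replicate 3 and at 22.0 TPM in SHF replicate 3. Of the 7 genes of this list that were tested, 2 had a higher mean log2(TPM + 1) in SHF and 5 in CNC, and their median difference was -0.36 against 0.02 over all genes tested.

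*Nt5e* was listed at 0 in all 3 CNC libraries. It had 18.9, 123 and 16.2 TPM in SHF replicates 1, 2 and 3, so that replicate 2 was far above the other SHF libraries. Exclusive transcripts were taken here as those above 5 TPM in each library of a lineage and at 0 in each library of the other. *Nt5e* passed this filter for SHF, and was the only one of the 8 genes and of 59 further genes of the pathway to pass it in either direction. Over the whole matrix 0.0778% of rows were SHF-exclusive and 0.0614% CNC-exclusive. With *Mgp*, it was 1 of 2 of the 8 genes whose SHF libraries all lay above the CNC libraries, as was found for 6.11% of all genes tested. This pattern is what brought *Nt5e* into the set, so nothing is read from it. The lowest SHF value, 16.2 TPM, lay well above the limit of 5 TPM. *Dlx5*, at 13.1, 4.97 and 14.3 TPM in CNC replicates and 0 in all SHF libraries, lay just outside the same filter in the other direction. *Nt5e* lies on chromosome 9 from 88327197 to 88372092 on the plus strand, with no exon shared with another gene.

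The sum of endothelial transcripts was higher in the SHF libraries, as *Nt5e* was. The summed level of 10 endothelial genes was 99.5, 622 and 520 TPM in SHF replicates 1, 2 and 3 and 60.8, 73.6 and 24.3 TPM in CNC replicates, with 8, 8 and 9 of the 10 genes above 0 in SHF replicates against 3, 3 and 4 in CNC replicates. In SHF replicates 1, 2 and 3, *Cdh5*, the adhesion molecule of endothelial junctions, reached 5.94, 17.2 and 24.6 TPM, and *Emcn*, an endothelial sialomucin, 11.6, 220 and 47.6 TPM. *Cdh5*, *Emcn*, *Tie1*, *Cldn5* and *Vwf* were listed at 0 in all CNC libraries, while *Pecam1* was above 0 in all 6 libraries, at 31.5, 148 and 142 TPM in SHF replicates against 9.72, 37.9 and 19.8 TPM in CNC replicates. *Tek*, *Kdr*, *Esam* and *Egfl7* were each at 0 in an SHF library and above 0 in a CNC library, and their lineages overlapped. *Nt5e* was highest in the library with the most endothelial transcript, SHF replicate 2, but SHF replicate 3 was close to replicate 1 in *Nt5e* and far above it in the endothelial sum. The sum of 6 cardiomyocyte genes, led by *Tnnt2* and *Actc1*, was between 87.4 and 116 TPM in SHF libraries against 0 to 22.3 TPM in CNC libraries. It rested on few genes, with 5, 1 and 4 of the 6 above 0 in SHF replicates against 2, 1 and 0 in CNC replicates. In SHF replicate 2 it was *Tnnt2* alone, and *Myl7* was at 0 in all 6 libraries. *Nt5e* was above 0 in SHF replicate 1, in which *Xist* was listed at 0. The part of these cell types, or of the sex of the mice, in the *Nt5e* signal was not tested.

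**Figure D3:**
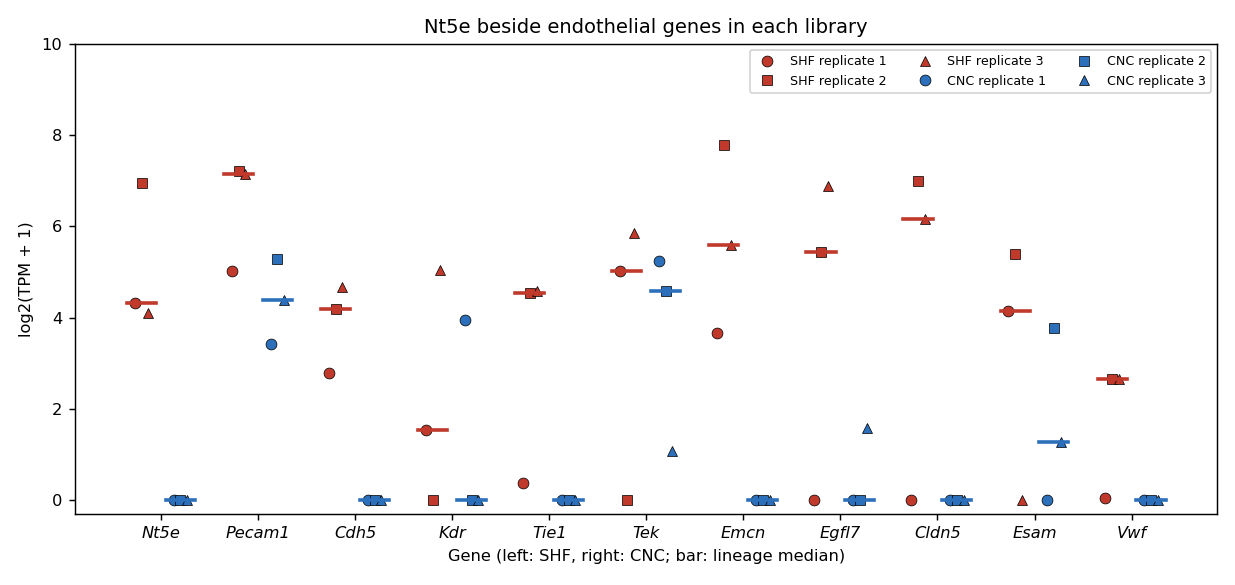
*Nt5e* beside the 10 endothelial genes, as log2(TPM + 1), with SHF libraries on the left and CNC libraries on the right of each gene, 1 point per library and a bar at the lineage median. *Nt5e*, *Cdh5* and *Emcn* are above 0 in all 3 SHF libraries and at 0 in all CNC libraries, whereas *Pecam1* is above 0 in all 6 and *Tek* and *Kdr* overlap between the lineages.

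The genes with profiles most like those of *Mgp* and *Nt5e* were taken by the root mean square difference of log2(TPM + 1), each gene centred on its mean over the 6 libraries. For *Nt5e* these were *Dtwd2* at 0.31, *Btbd6* at 0.35 and *Lcn2* at 0.49. In SHF replicates 1, 2 and 3, *Btbd6* reached 11.3, 68.9 and 14.6 TPM and *Lcn2* 31.9, 77.3 and 28.3 TPM, with both listed at 0 in CNC libraries, and *Dtwd2* reached 22.4, 85.3 and 19.2 TPM but at most 0.39 TPM in a CNC library. For *Mgp* they included *Kdm5c* at 0.19 and *Actr3* at 0.19, each highest in SHF replicate 1.

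Transcripts of some other genes of ATP and adenosine handling were above 0 in both lineages. *Entpd2*, an enzyme that cleaves ATP outside cells, had 624, 414 and 601 TPM in SHF replicates 1, 2 and 3 against 893, 478 and 646 TPM in CNC replicates, although its exons overlap those of *Npdc1*. *Entpd1*, which encodes CD39, was much lower, at 0, 7.72 and 7.50 TPM in SHF replicates against 6.07, 2.86 and 25.5 TPM in CNC replicates. *Slc29a1*, a nucleoside transporter whose exons overlap the antisense gene *Gm17080*, was between 151 and 646 TPM, and *Adk*, which returns adenosine to AMP, was between 13.9 and 132 TPM. Of the adenosine receptors, *Adora2a* was above 0 in all 6 libraries, at 5.46, 23.8 and 14.2 TPM in SHF replicates against 2.24, 10.5 and 3.41 TPM in CNC replicates, and *Adora3* was listed at 0 in all. Of the 6 genes of this list that were tested, 3 had a higher mean log2(TPM + 1) in SHF and 3 in CNC, the median difference was -0.12, and all 6 had overlapping lineages.

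*Enpp1* and *Alpl*, the enzymes that make and destroy pyrophosphate, were above 0 in all 6 libraries, with overlapping lineages. *Enpp1* had 24.9, 45.8 and 57.5 TPM in SHF replicates 1, 2 and 3 against 53.9, 2.55 and 20.4 TPM in CNC replicates, with CNC replicate 2 lowest. The SHF libraries averaged 42.7 ± 16.5 TPM and the CNC libraries 25.6 ± 26.1 TPM (SD, n = 3 each). *Alpl* had 114, 33.5 and 107 TPM in SHF replicates against 96.3, 16.3 and 65.5 TPM in CNC replicates. The SHF libraries averaged 84.8 ± 44.6 TPM and the CNC libraries 59.4 ± 40.3 TPM (SD, n = 3 each). For both genes the means differed by less than the larger SD. *Alpl* exceeded *Enpp1* in 5 of the 6 libraries. The ratio of *Alpl* to *Enpp1* was 4.57, 0.73 and 1.86 in SHF replicates against 1.78, 6.40 and 3.21 in CNC replicates. *Enpp1* lies on chromosome 10 from 24637914 to 24712159 and *Alpl* on chromosome 4 from 137741733 to 137796384, both on the minus strand.

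*Ank*, the membrane protein of pyrophosphate export, had 52.0, 21.7 and 60.6 TPM in SHF replicates 1, 2 and 3 against 10.7, 45.3 and 49.5 TPM in CNC replicates. The SHF libraries averaged 44.8 ± 20.4 TPM and the CNC libraries 35.2 ± 21.3 TPM (SD, n = 3 each), and the lineages overlapped. It lies on chromosome 15 from 27466677 to 27594909 on the plus strand, and its exons overlap the microRNA gene *Mir7117*. *Abcc6*, a transporter of liver and kidney through which ATP leaves the cell, was listed at 0 in all 6 libraries, and it lies on chromosome 7 from 45967555 to 46030302 on the minus strand. By median TPM over the 6 libraries the order was *Mgp* at 14711, *Alpl* at 80.9, *Ank* at 47.4, *Enpp1* at 35.4, *Spp1* at 9.82, *Nt5e* at 8.10, *Runx2* at 3.64 and *Abcc6* at 0. *Mgp* lay above *Alpl* in 6 of 6 libraries with no overlap. The ranges of every other neighbouring pair in this order overlapped, so their order is not firm. *Alpl* exceeded *Ank* in 5 of 6 libraries, *Ank* exceeded *Enpp1* in 4, *Enpp1* exceeded *Spp1* in 5, *Spp1* exceeded *Nt5e* in 2 and *Nt5e* exceeded *Runx2* in 3. The median of *Nt5e* joins SHF libraries at 16.2 TPM or more with CNC libraries at 0.

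The promoter sequences of *Alpl* and *Enpp1* are shown because these enzymes act on the same molecule, and that of *Spp1* because Runx2, another of the 8 genes, is known to act on the osteopontin gene. *Alpl* has 2 annotated starts, and its TPM, given for the gene as a whole, does not tell them apart. Each sequence is the 250 bases before an annotated RefSeq start, 5′ to 3′ on the strand of the gene. Capitals mark the letters of the RUNX core TGTGGT, the TATA box TATAAA or the GC box GGGCGG on either strand.
Alpl, upstream start (GRCm38.p6 chr4:137796385-137796634, minus strand): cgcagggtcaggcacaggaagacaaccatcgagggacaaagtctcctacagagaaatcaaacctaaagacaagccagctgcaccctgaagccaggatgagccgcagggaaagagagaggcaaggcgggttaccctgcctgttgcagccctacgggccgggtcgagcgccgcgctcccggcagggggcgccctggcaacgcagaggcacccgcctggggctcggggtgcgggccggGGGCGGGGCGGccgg
Alpl, downstream start (GRCm38.p6 chr4:137766476-137766725, minus strand): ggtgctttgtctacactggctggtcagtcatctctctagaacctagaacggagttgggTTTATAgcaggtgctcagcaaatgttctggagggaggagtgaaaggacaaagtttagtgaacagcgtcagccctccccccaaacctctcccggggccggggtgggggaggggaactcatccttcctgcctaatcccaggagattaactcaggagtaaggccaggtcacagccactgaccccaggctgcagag
Enpp1 (GRCm38.p6 chr10:24712160-24712409, minus strand): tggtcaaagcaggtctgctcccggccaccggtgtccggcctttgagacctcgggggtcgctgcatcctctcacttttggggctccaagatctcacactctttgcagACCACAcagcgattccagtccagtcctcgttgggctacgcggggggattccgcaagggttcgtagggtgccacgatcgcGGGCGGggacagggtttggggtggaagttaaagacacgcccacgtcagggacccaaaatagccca
Spp1 (GRCm38.p6 chr5:104434861-104435110, plus strand): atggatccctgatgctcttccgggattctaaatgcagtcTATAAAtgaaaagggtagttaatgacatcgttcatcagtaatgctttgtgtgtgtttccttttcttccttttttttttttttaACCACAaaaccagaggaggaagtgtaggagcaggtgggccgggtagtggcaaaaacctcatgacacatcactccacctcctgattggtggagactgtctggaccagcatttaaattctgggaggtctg

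The upstream *Alpl* window held 2 GC boxes, which overlap each other and begin 15 and 10 bases before the start, with 68.4% G and C. The downstream *Alpl* window held no GC box, 1 TATA box letter match that begins 192 bases before the start, and 56.0% G and C. RUNX letters occurred once in the *Enpp1* window, from 144 bases before the start, and once in the *Spp1* window printed, from 128 bases before the start. Neither *Alpl* window held them. *Spp1* has a further annotated start, whose window overlaps exons of *Gm42793*, is not printed and held none of the 3 motifs. Among all 32851 promoter windows of this length, 14.0% held RUNX letters, 12.4% TATA box letters and 32.7% GC box letters. In the window of *Runx2* itself RUNX letters began 80 bases before the start, and the window of *Nt5e* held 4 GC boxes and 72.0% G and C. Both windows overlap exons of the same gene in GENCODE M21 and are not printed. A letter match is a description of the sequence only, since binding was not measured.

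*Spp1*, on chromosome 5 from 104435118 to 104441050 on the plus strand, was detected unevenly. It had 123, 42.8 and 0 TPM in SHF replicates 1, 2 and 3 against 0, 0 and 19.6 TPM in CNC replicates. It was thus above 0 in 2 of 3 SHF libraries and 1 of 3 CNC libraries, and the lineages overlapped. Of all genes tested, 6.3% were listed at 0 in exactly 3 libraries and 38.4% in at least 1. Macrophages are known to make osteopontin. A list of 10 macrophage and leukocyte genes, led by *C1qb* and *Lyz2*, summed to 42.4, 0 and 26.9 TPM in SHF replicates and to 7.96, 318 and 15.6 TPM in CNC replicates, with *Ptprc*, *Adgre1*, *Fcgr3* and *Itgam* at 0 in all 6. CNC replicate 2, the library with the highest sum, had *Spp1* at 0, and the part of macrophages in the *Spp1* signal was not tested. Exons of *Spp1* overlap those of *Gm42793*, an unclassified transcript.

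Receptors of osteopontin were detected in every library. *Cd44*, the hyaluronan and osteopontin receptor, had 117, 173 and 94.6 TPM in SHF replicates 1, 2 and 3 against 82.1, 33.0 and 77.5 TPM in CNC replicates, so that all SHF libraries lay above all CNC libraries. Its difference of mean log2(TPM + 1) was 1.05 ± 0.52 (SE), with an adjusted p of 0.874 by limma. *Itgb1*, a shared integrin chain, was between 270 and 410 TPM, and *Itgav*, the chain that binds osteopontin with *Itgb3* or *Itgb5*, was between 47.2 and 122 TPM, both with overlapping lineages. *Itgb3* was between 1.29 and 15.1 TPM. Of the 6 receptor genes tested, 5 had a higher mean log2(TPM + 1) in SHF and 1, *Itga9*, in CNC, with a median difference of 0.40, and none passed the threshold.

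*Runx2* was low. It had 3.27, 9.69 and 4.01 TPM in SHF replicates 1, 2 and 3 against 13.1, 2.27 and 0 TPM in CNC replicates, and CNC libraries held both its highest and its lowest value. It lies on chromosome 17 from 44495987 to 44814797 on the minus strand, and its exons overlap those of the antisense gene *Runx2os1*. The protocol does not mark strand, so reads of the pair cannot be told apart.

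Of 15 other genes of bone and cartilage differentiation, 5 were tested. *Sp7*, which acts after Runx2 in the making of osteoblasts, was listed at 0 in all 6 libraries, as were *Dlx3* and *Mepe*. *Acan*, *Col2a1* and *Col10a1* of cartilage and *Ibsp* and *Dmp1* of bone were at most at 8.85 TPM, in 1 library each. *Msx1*, a homeobox gene of neural crest and limb, was between 59.6 and 323 TPM in SHF libraries and between 120 and 148 TPM in CNC libraries. *Sox9*, the regulator of cartilage, had 93.6, 133 and 59.3 TPM in SHF replicates 1, 2 and 3 against 52.6, 43.8 and 32.0 TPM in CNC replicates, with every SHF library above every CNC library and a difference of mean log2(TPM + 1) of 1.09 ± 0.54 (SE) at an adjusted p of 0.874 by limma. *Dlx5*, a homeobox gene of the pharyngeal arches and of bone, was listed at 0 in all SHF libraries and passed the filter on low values through its CNC libraries alone, so its difference is given as a description. *Phex*, an endopeptidase of bone that limits mineral inhibitors, had 0, 4.22 and 0 TPM in SHF replicates against 8.45, 10.3 and 20.2 TPM in CNC replicates, without overlap. It too reached the filter through its CNC libraries, so this is a description. *Cbfb*, the partner of Runx proteins, had 43.9, 0 and 1.12 TPM in SHF replicates against 99.3, 8.10 and 72.9 TPM in CNC replicates, with overlap.

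Phosphate transporters and pyrophosphate genes other than the members also overlapped between lineages. *Slc20a1*, the phosphate importer PiT-1, had 60.9, 32.9 and 110 TPM in SHF replicates 1, 2 and 3 against 20.5, 43.7 and 31.7 TPM in CNC replicates, with a difference of 0.96 ± 0.66 (SE) and an adjusted p of 0.883 by limma. *Enpp3*, a paralog of *Enpp1*, had 76.5, 39.3 and 145 TPM in SHF replicates against 116, 106 and 120 TPM in CNC replicates, and exceeded *Enpp1* in 5 of 6 libraries. *Ppa1*, a cytosolic pyrophosphatase, was between 33.2 and 145 TPM. *Phospho1*, a phosphatase of mineralizing cells, was at most 1.49 TPM. Of the 7 genes of this list that were tested, 4 had a higher mean log2(TPM + 1) in SHF and 3 in CNC, with a median difference of 0.69.

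Hormonal and circulating regulators ranged from genes at 0 in all 6 libraries to *Fgfr1*, a receptor of fibroblast growth factors, between 31.6 and 121 TPM. *Tnfrsf11b*, which encodes osteoprotegerin, had 48.1, 0 and 16.5 TPM in SHF replicates 1, 2 and 3 against 104, 0 and 88.9 TPM in CNC replicates, while its ligand *Tnfsf11* was listed at 0 in all 6 libraries and *Tnfrsf11a* reached 23.2 TPM in SHF replicate 2 but no more than 0.30 TPM elsewhere. *Vdr*, *Casr* and *Cyp24a1*, of vitamin D and calcium sensing, were at 0 throughout, and *Kl*, the co-receptor of the phosphate hormone FGF23, was at 0.36 TPM in CNC replicate 3 and at 0 elsewhere. *Ahsg*, a mineral-binding plasma protein of liver, had 75.4, 65.9 and 11.1 TPM in SHF replicates against 0, 60.1 and 27.9 TPM in CNC replicates, and *Fetub* was between 0 and 26.5 TPM.

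**Figure D4:**
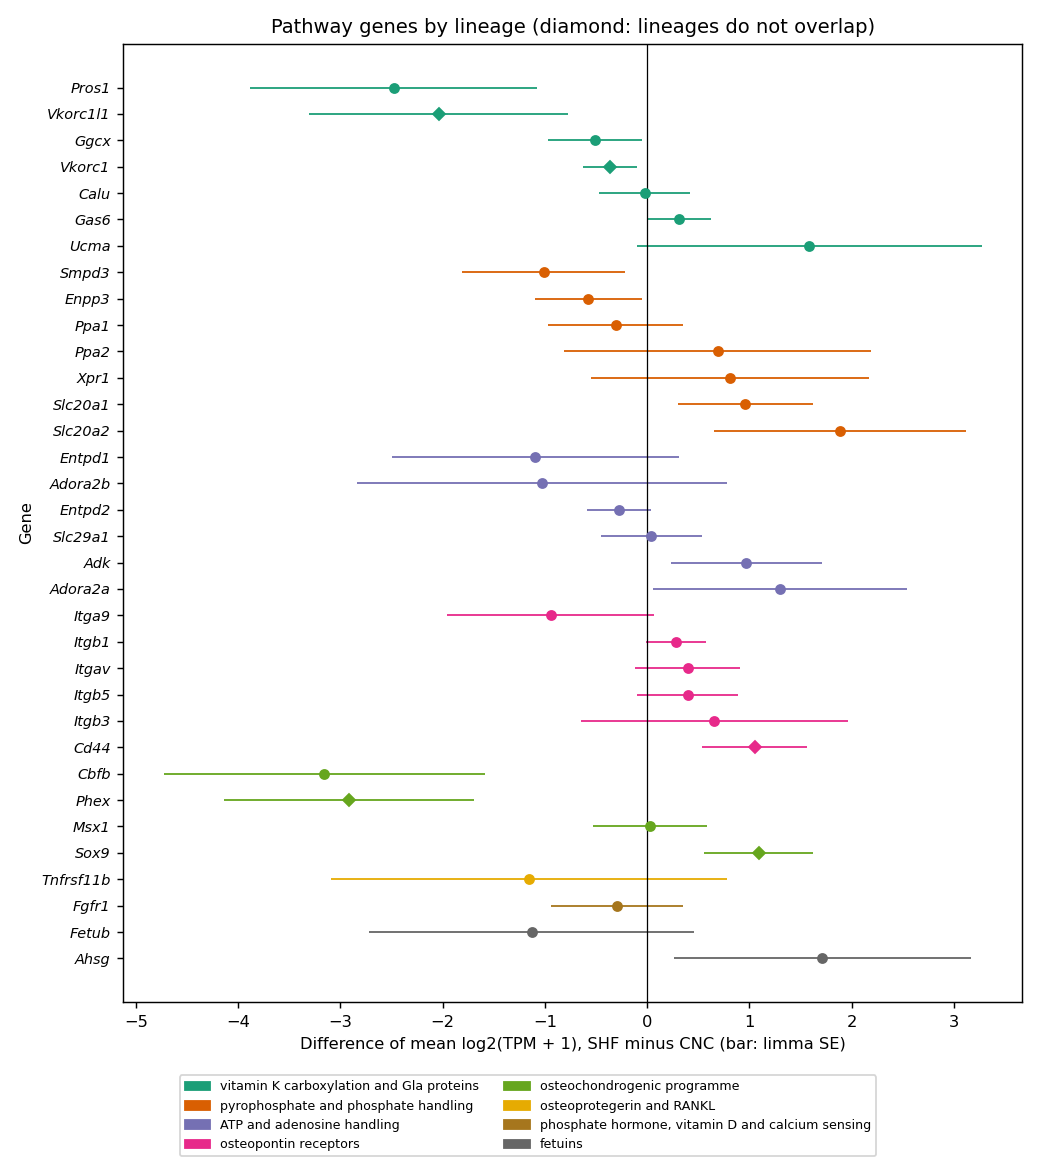
Difference of mean log2(TPM + 1), SHF minus CNC, with the limma SE as a bar, for 34 tested genes of the 8 pathway lists, where colours mark the list and diamonds mark genes whose lineages do not overlap. *Dlx5* is left out because it was listed at 0 in all SHF libraries, and the 34 genes lie on both sides of 0 with none past the threshold. *Phex* is drawn, but it too reached the filter through its CNC libraries, so nothing is read from its place.

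Over the 8 lists together, 59 genes were looked up, 35 passed the filter of at least 1 TPM in at least 3 libraries, and 9 were listed at 0 in all 6 libraries. Of the 8 members, 7 passed the same filter. In the limma test of lineage, 0 of the 35 pathway genes had an adjusted p under 0.05, as did 0% of all 10185 genes tested, and 2 of the 35, *Dlx5* and *Phex*, had an unadjusted p under 0.05 against 5.86% of all genes. Both entered the tested set through CNC, the lineage in which they were high, and the filter shaped their place in these counts, so nothing is read from them. Without genes listed at 0 in a whole lineage, 1 of 34 pathway genes, again *Phex*, had an unadjusted p under 0.05 by limma against 5.22% of all such genes. Of the 34, 5 genes, or 14.7%, did not overlap against 11.2%, and *Phex* is among these too. The lineages did not overlap for 6 of the 35, or 17.1%, of which *Cd44* and *Sox9* were higher in SHF and *Vkorc1*, *Vkorc1l1*, *Dlx5* and *Phex* in CNC. Over all genes tested the share was 11.8%, with 6.11% higher in SHF and 5.68% higher in CNC. The median difference was -0.03 over the 35 genes and 0.02 over all genes. For 1 gene alone, an exact permutation test (two-sided) of 3 libraries against 3 reaches 0.1 at best. Lineages separate more easily with 1 library fewer. The count was 15 of 32, or 46.9%, without CNC replicate 2, against 21.3% of all genes. It was 11 of 33, or 33.3%, without SHF replicate 1, against 26.1%. It was 10 of 35, or 28.6%, without SHF replicate 2 and 11 of 33, or 33.3%, without SHF replicate 3, each against 21.5%. Without CNC replicate 1 it was 6 of 33, or 18.2%, which is below the 20.4% of all genes, and without CNC replicate 3 it was 7 of 32, or 21.9%, against 21.2%.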

How the data were processed

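Living GFP+ cells were sorted from 3 SHF-traced and 3 CNC-traced samples, and their RNA was amplified by the SmartSeq2 protocol, which has no molecular identifiers. Per the labels and the submitters' processing notes, the authors made TPM values with Bowtie2 and RSEM 1.2.25 on mm10 and deposited 1 matrix with a column for each library. Which gene models were used is not given in the sources used here. Columns were matched to libraries by library code, and 27 row names are dates made by spreadsheet software. The lineage difference was fitted on log2(TPM + 1) by limma 3.58.1 under R 4.3.3, with lmFit and a trended eBayes. The fit took the 10185 genes that reached 1 TPM in 3 or more libraries. P-values were adjusted by the Benjamini-Hochberg method and 0.05 was the threshold. Differences on this scale understate the change of low genes. Depth is unknown, so no interval or detection limit is given.

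The members and lists were chosen with earlier results of these data known. Named were all 8 members, the 3 most abundant genes of each list, every tested list gene whose lineages did not overlap, the 3 genes closest in profile to *Mgp* and to *Nt5e*, and marker sums. Some genes that this rule or the lists hold are not reported here. The other list genes, the ratios, the motifs and the endothelial genes named were chosen after their values were seen. Gene positions come from GENCODE M21 (GRCm38, equal to mm10), where all 67 members and pathway genes were matched by symbol. Promoters are from RefSeq on GRCm38.p6, in which 6 of the 8 members had a window. Other pseudocounts, filters, scalings, a replicate block and leaving out each library were tried. Python 3.11.15 with pandas 2.3.3 and matplotlib 3.10.9 did the rest.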

Additional observations from a re-analysis of the deposited data

How the results depend on the processing

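The count of pathway genes past the threshold was 0 in limma under all 14 alternatives, which changed the pseudocount to 0.1 or 5, the filter, the scaling (by median ratios or quantiles) or the eBayes trend, added a replicate block, or left out 1 library. Over all genes the count was 0, and 1 with a pseudocount of 5, where *Gm13305* passed. Replicate numbers are shared between lineages but nothing says that they mark a pairing, and deviations from the lineage mean correlated, between same-numbered libraries, at -0.011, -0.004 and -0.011 for replicates 1, 2 and 3. With a replicate block the count of pathway genes past the threshold was 0, as was that of all genes. The count of pathway genes without overlap, 6, was also 6 under rescaling and other filters, was 5 without genes listed at 0 in a whole lineage (chosen after seeing the data), and ran from 6 to 15 when a library was left out, where the share over all genes ran from 20.4% to 26.1%. The count of lineage-exclusive genes among members and pathway, 1, became 2 with a threshold of 1 TPM, through *Dlx5*, and ran from 1 to 2 when a library was left out, where *Dlx5* was added without CNC replicate 2 and *Phex* without SHF replicate 2. *Nt5e* passed in each of these. A gene that passes with all libraries must also pass with 1 left out or with a looser limit, so nothing is read from this.

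Of 77 alternative values for the 7 members above 0, 75 lay within 1 SD of the value given, and the 2 others were those of *Nt5e* under other pseudocounts. These SDs are wide, and 1 library often moved a value far. The difference of *Enpp1*, 1.36, ran from 0.27 without CNC replicate 2 to 2.25 without CNC replicate 1, that of *Spp1*, 2.68, was 1.27 when SHF replicate 1 was left out and 4.75 when SHF replicate 3 was, and with 1 library left out the highest values were 0.92 for *Ank* and 1.21 for *Alpl*, both without SHF replicate 2, and 1.76 for *Runx2* without CNC replicate 1. The sign of the difference of mean log2(TPM + 1) changed in 3, for *Ank* without CNC replicate 1 (-0.20 against 0.48), *Alpl* without CNC replicate 2 (-0.09 against 0.64) and *Runx2* without CNC replicate 3 (-0.15 against 0.77). The cause was not tested. That of *Mgp* ran from 0.54 to 1.01 over its alternatives. Unknown depth and frequent zeros limit what is said of *Spp1*, *Runx2*, *Nt5e* and *Abcc6*.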
